A study of Trichoderma reesei with 6 samples.

Results

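The 7 genes described here encode sugar transporters, or proteins listed as such, of the filamentous fungus Trichoderma reesei, and were chosen by protein identifier because of their link to cellulase induction or hexose uptake. They are crt1 (locus tag TRIREDRAFT_3405), 69957, 79202, 77517, 62380, 104072 and hxt1 (locus tag TRIREDRAFT_22912), and all 7 of the 7 listed identifiers were among the 9129 genes of the deposited table. The RefSeq annotation (assembly v2.0 of strain QM6a) gives a symbol to 1 of them, hxt1. The name crt1 and the description of the other 5 as major facilitator sugar transporters come with the list of members and are not in that annotation.

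Trichoderma reesei lives on plant cell walls and secretes cellulases. Cellulose itself cannot enter the cell, so its breakdown products have to be carried across the plasma membrane before they can feed or signal. Transporters of the major facilitator superfamily do this, each moving its sugar through a single membrane-spanning protein. The crt1 protein is known as a transporter that the fungus needs for full cellulase induction on cellulose or lactose, and hxt1 encodes a hexose transporter. In carbon catabolite repression, glucose keeps many such genes low through the zinc-finger repressor that cre1 encodes.

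RNA was sequenced from mycelium of a strain without cre1 (Δcre1, made from the strain QM9414), grown in Mandels-Andreotti medium at 28 °C and 200 rpm, with cellulose at 1% or glucose at 2% (w/v). Each carbon source had 3 libraries, described by the series as biological replicates. Cultures were run for 24, 48 or 72 h on cellulose and 24 or 48 h on glucose, and the labels do not tell the time of a library, so carbon source, its concentration and culture time cannot be told apart. The labels do not say whether the mutant is 1 clone. The parental strain QM9414 enters only through the authors' own fold changes of the mutant over the parent on each carbon source.

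Recovered read totals ranged from 18370939 to 22395248 on cellulose and from 9009170 to 24655534 on glucose, where library 1 had the fewest. The deleted gene was not at 0, with normalised read counts of 2081 to 3394 on cellulose and 525 to 997 on glucose, and the authors' deposited table gave it a log2 fold change of -1.96 on cellulose and -3.11 on glucose in the mutant over the parent. Cellulose library 3 stood apart: over all genes tested, its log2 values had a mean Pearson r of 0.850 with glucose libraries, where cellulose libraries 1 and 2 had 0.788 and 0.797. Of the 7 transporter genes, 6 had their lowest cellulose value in library 3, and the other, 62380, had its highest there.

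In the mutant, 6 of the 7 transporter genes rose on cellulose over glucose, and 62380 did not pass the test. All 7 passed the filter on low values, a mean of at least 10 over the 6 libraries. Protein 69957 did so only through its cellulose libraries, with means of 827 on cellulose and 2.2 on glucose. A gene that passes in this way can only be called higher. The test was limma with Benjamini-Hochberg adjustment over all 8176 genes tested, and 18.2% of those genes were called higher and 11.2% lower. EdgeR called 18.6% of genes higher and 9.85% lower, DESeq2 called 21% higher and 13.3% lower, and both called the 6 transporters that limma called. None of the 3 tools called a transporter lower (0 genes, and 0 also at an unadjusted limma p under 0.05). The median log2 fold change was 2.00 over the 7 genes and -0.02 over all genes tested. The median of all genes moved to -0.18 under quantile normalisation, and the 6 genes kept their call there. Transporters form large families, and how the authors counted reads shared by similar genes or by overlapping genes on the other strand is not given.

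**Figure D1:**
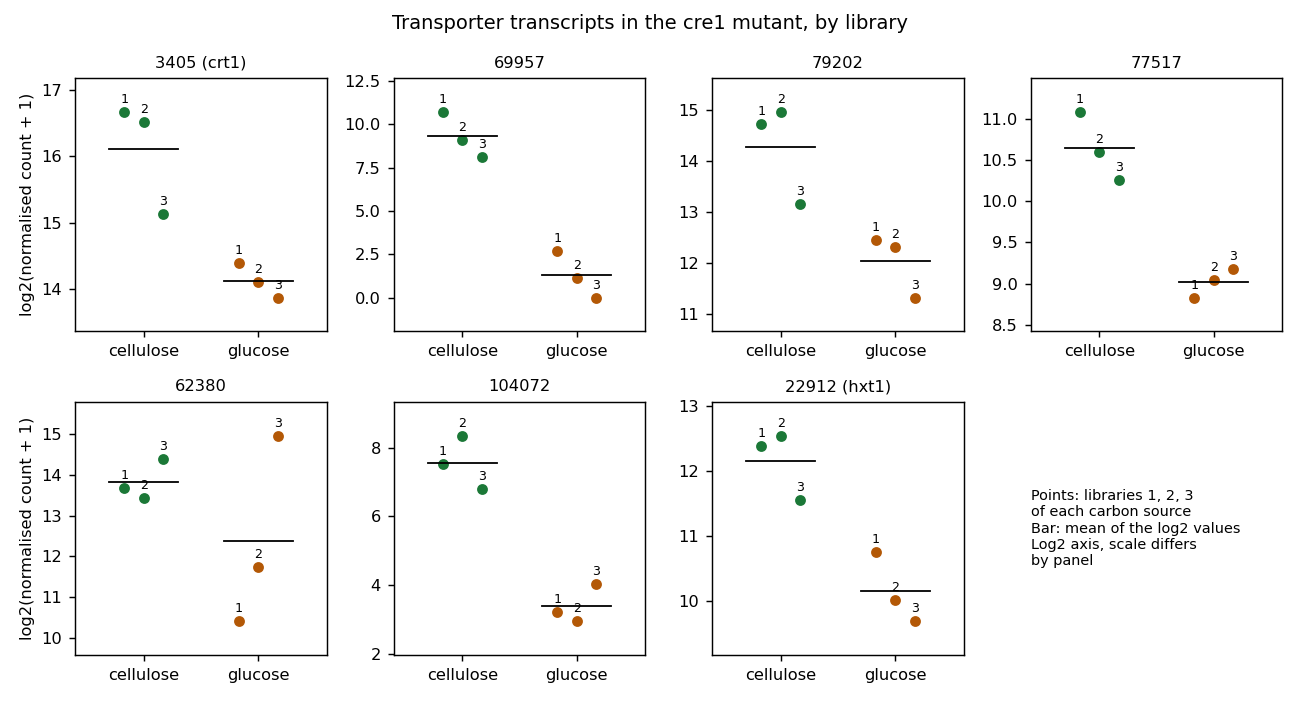
Each panel plots log2(normalised read count + 1) of 1 transporter gene in the cellulose libraries (green) and the glucose libraries (brown) of the mutant; points are libraries 1 to 3 and bars are means. In 6 panels the cellulose libraries lie above all glucose libraries, as for 25.9% of all genes tested (the reverse held for 22.8%). For 62380 glucose library 3 lies above every other library.

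For crt1 the normalised read count was 103941, 93426 and 35764 in cellulose libraries 1, 2 and 3, and it was 21393, 17696 and 14958 in glucose libraries 1, 2 and 3. Every cellulose library was above every glucose library, as for 25.9% of all genes tested (the reverse held for 22.8%), and cellulose library 3 was the nearest to glucose. Cellulose libraries averaged 77710 ± 36705 and glucose libraries 18016 ± 3229 (SD, n = 3 each). The log2 fold change was 1.98 (SE 0.43, limma adjusted p = 0.0131). Without cellulose library 3 it was 2.47. Without glucose library 2 it was 1.97 and the call was lost at a limma adjusted p of 0.0503. Over all 17 alternative settings the adjusted p of crt1 ran from 6.53e-07 to 0.0503, and under quantile normalisation its log2 fold change was 1.27.

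Protein 79202 behaved much like crt1 across libraries. Its normalised read counts were 27030, 31931 and 9118 in cellulose libraries 1, 2 and 3, and 5615, 5093 and 2545 in glucose libraries 1, 2 and 3. The groups did not overlap, and library 3 was the lowest of each group. The log2 fold change was 2.25 (SE 0.51, limma adjusted p = 0.0156). This call was the least steady of the 6. It was lost without cellulose library 1 (log2 fold change 2.03), cellulose library 2 (1.91) or glucose library 3 (1.89), with adjusted p-values of 0.0538, 0.0549 and 0.0518, within a range of 3.36e-06 to 0.0549 over the 17 alternatives.

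The hexose transporter gene hxt1 stood at 5316, 5955 and 2995 normalised reads in cellulose libraries 1, 2 and 3, and at 1732, 1033 and 827 in glucose libraries 1, 2 and 3. It was thus higher in every library on cellulose than in any on glucose. Cellulose libraries averaged 4755 ± 1558 and glucose libraries 1197 ± 474 (SD, n = 3 each). On the log2 scale the difference was 2.00 (SE 0.35, limma adjusted p = 0.00548). All 17 alternatives kept the call, with log2 fold changes from 1.75 to 2.30.

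Protein 77517 showed the smallest rise of the 6 and the tightest glucose group. Its normalised read counts were 2181, 1552 and 1231 in cellulose libraries 1, 2 and 3, and 453, 525 and 577 in glucose libraries 1, 2 and 3. The highest glucose library was 1.27 times the lowest. The log2 fold change was 1.64 (SE 0.23, limma adjusted p = 0.00247), and it lay between 1.42 and 1.83 in the 17 alternatives, all of which kept the call.

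The other 2 genes that rose were close to absent on glucose. Protein 69957 stood at 1670, 540 and 270 in cellulose libraries 1, 2 and 3, and at 5.52, 1.21 and 0 normalised reads in glucose libraries 1, 2 and 3. The glucose values stand for 2, 2 and 0 reads, and the 0 reads of glucose library 3 allow a normalised count of up to 1.92 (3 reads). The log2 fold change was 8.01 (SE 0.86, limma adjusted p = 0.000818). It depends on the pseudocount, at 8.50 with a pseudocount of 0.5 and 5.73 with one of 10. It also moved with single libraries, to 7.30 without cellulose library 1, 8.61 without cellulose library 3, 8.72 without glucose library 1 and 7.36 without glucose library 3, and kept its call each time. In reads, 2149 on cellulose stood against 4 on glucose, a ratio of the shares of library reads of 497, with a 95% exact interval from 194 to 1826 that covers counting error only.

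Protein 104072 was the least sequenced of the 7 on cellulose. Its normalised read counts were 182, 325 and 110 in cellulose libraries 1, 2 and 3, and 8.29, 6.66 and 15.4 in glucose libraries 1, 2 and 3. The groups lay far apart, although the glucose values rest on 3, 11 and 24 reads. The log2 fold change was 4.16 (SE 0.50, limma adjusted p = 0.00123), and 3.32 with a pseudocount of 10. Pooled reads gave a ratio of the shares of library reads of 16.6, with a 95% exact interval from 11.9 to 23.6 for counting error only.

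Protein 62380 was the exception. Its normalised read counts were 13075, 11026 and 21359 in cellulose libraries 1, 2 and 3, and 1351, 3396 and 32013 in glucose libraries 1, 2 and 3. The groups overlapped, because glucose library 3 was the highest of all 6 libraries while glucose libraries 1 and 2 were below every cellulose library. Within glucose the highest library was 23.7 times the lowest, and the SD of the log2 values there, 2.35, was larger than that of 99.7% of the genes tested. The log2 fold change of 1.46 had a 95% interval from -0.93 to 3.85 (limma adjusted p = 0.31). Without glucose library 3 it was 2.76 and passed (limma adjusted p = 0.00874, with a range of 0.00874 to 0.845 over the 16 alternatives that gave a p). DESeq2 gave no p-value for this gene, and pooled reads, at 51185 on cellulose and 56101 on glucose, gave a ratio of the shares of library reads of 0.844. The culture time of glucose library 3 is not given, and its part in this value was not tested.

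**Figure D2:**
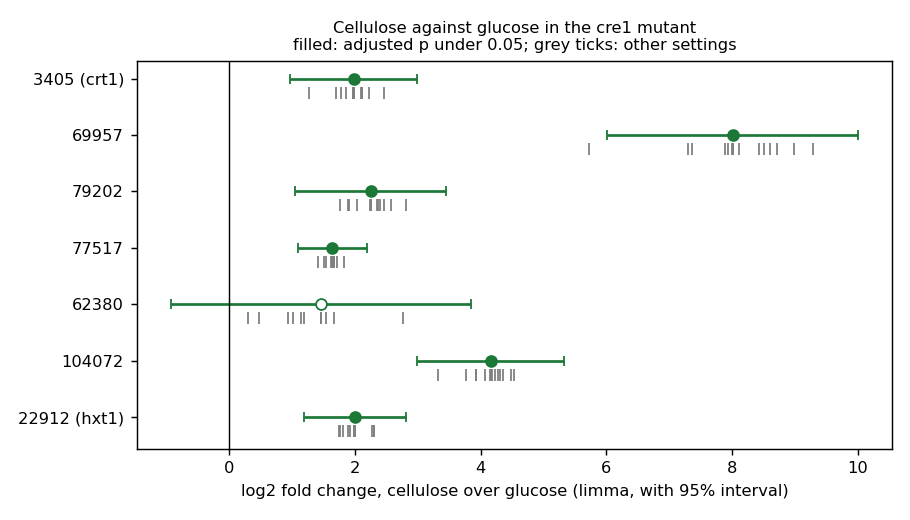
Log2 fold changes of the 7 transporter genes, cellulose over glucose, on the log2(normalised read count + 1) scale, with 95% intervals from limma; filled circles passed at an adjusted p under 0.05 and grey ticks are the alternative settings. All ticks lie to the right of 0, those of 62380 reach from 0.31 to 2.76, and those of 69957 from 5.73 to 9.29. The DESeq2 value of 62380, which had no p-value, is not drawn.

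The reads of each transporter were also set against those of crt1 in the same library, a measure that no scaling between libraries can move. It compares carbon sources for 1 gene at a time, not levels between genes, since gene length was not used. The hxt1 reads were 5.11%, 6.37% and 8.37% of the crt1 reads in cellulose libraries 1, 2 and 3, and 8.10%, 5.84% and 5.53% in glucose libraries 1, 2 and 3. The ranges overlapped, with averages of 6.62% ± 1.64 for cellulose and 6.49% ± 1.40 for glucose (SD, n = 3 each).

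The ratio to crt1 likewise overlapped between carbon sources for 79202, at 28.6% ± 4.87 on cellulose and 24.0% ± 6.19 on glucose, and for 77517, at 2.40% ± 0.93 for cellulose and 2.98% ± 0.87 for glucose (SD, n = 3 each). A difference between carbon sources in these ratios was not detectable with 3 libraries a group, which does not show that the genes act alike. Proteins 69957 and 104072 did not overlap. The share of all genes whose ratio to crt1 would not overlap was not computed, so this does not set the 2 genes apart. Protein 69957 had enough reads only through its cellulose libraries, so its ratio could only be higher there. Reads of 69957 were 1.61%, 0.578% and 0.755% of the crt1 reads in cellulose libraries 1, 2 and 3, and at most 0.0258% in a glucose library. Reads of 104072 were 0.175%, 0.347% and 0.308% of the crt1 reads in cellulose libraries 1, 2 and 3, and 0.0387%, 0.0376% and 0.103% in glucose libraries 1, 2 and 3. The exact permutation test (two-sided) of 6 such ratios gave p = 0.1 for both, the smallest that 3 against 3 allows, and 0.3 after Benjamini-Hochberg adjustment.

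For 62380 the ratio to crt1 was 12.6%, 11.8% and 59.7% in cellulose libraries 1, 2 and 3, and 6.31%, 19.2% and 214% in glucose libraries 1, 2 and 3. In glucose library 3 it thus had more reads than crt1, and library 3 was the highest of each group. As a share of all reads of the 7 genes, 62380 took 30.1% in cellulose library 3 (95% Wilson interval 29.9% to 30.4%) and 62.9% in glucose library 3 (62.5% to 63.2%). The crt1 share was 50.5% in cellulose library 3 (95% Wilson interval 50.2% to 50.8%) and 29.4% in glucose library 3 (29.1% to 29.7%). These intervals cover counting error only.

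**Figure D3:**
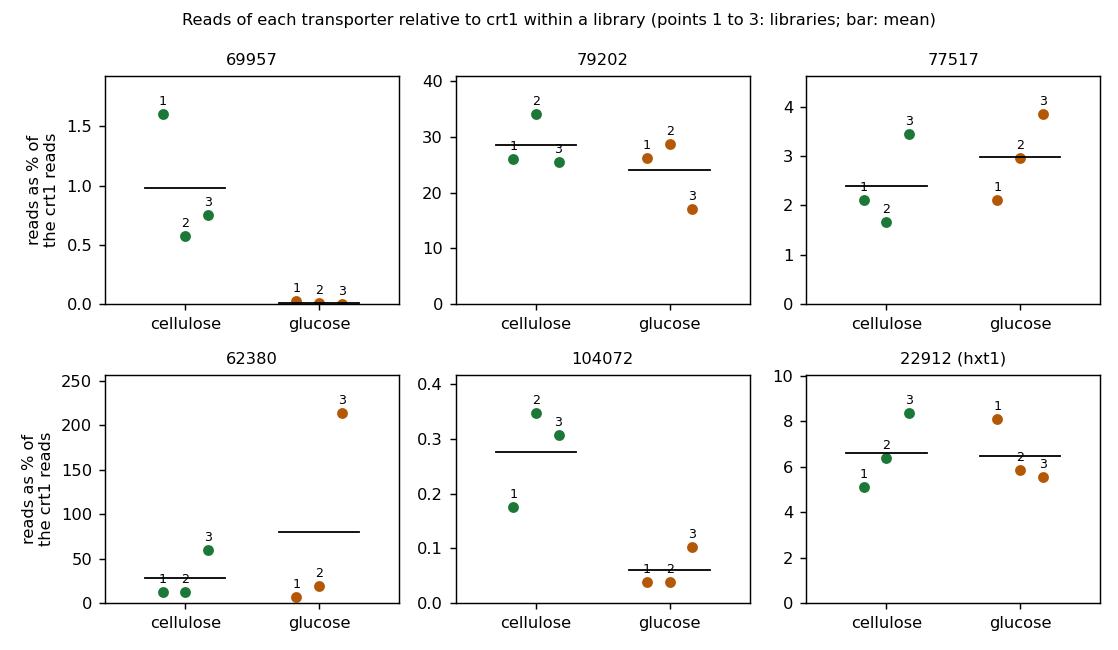
Reads of each of the other 6 transporter genes as a percentage of the crt1 reads in the same library, for cellulose (green) and glucose (brown) libraries 1 to 3 of the mutant, with bars at the means. The carbon sources separate for 69957 and 104072 and overlap for the others, and 62380 reaches 214% in glucose library 3. The share of all genes that would separate in this ratio was not computed.

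Over the 6 libraries, crt1 correlated with 79202 at a Pearson r of 0.98, with hxt1 at 0.97, with 69957 at 0.95, with 77517 at 0.94 and with 104072 at 0.92, and with 62380 at 0.23. The points are 6 libraries in 2 groups that share their carbon source, so a gene that differs between the groups correlates with any other that does. Among the 218 other genes with a symbol and a mean of at least 50, those most like crt1 were bip1 at 0.993, cel1b at 0.989 and pdi1 at 0.986. The bip1 product is a chaperone and the pdi1 product a disulfide isomerase of the endoplasmic reticulum, and cel1b encodes an intracellular β-glucosidase. Their log2 fold changes were 1.14 for bip1, 1.56 for cel1b and 1.38 for pdi1, and all 3 passed. The call of bip1 was lost under quantile normalisation (log2 fold change 0.44), and the calls of bip1 and cel1b were lost when any library but cellulose library 3 was left out.

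Among the genes most like hxt1 were cel61b at an r of 0.979, for a lytic polysaccharide monooxygenase, and cip2 at 0.972, for a glucuronoyl esterase. For 69957 the nearest gene was cip2 at 0.998, and for 79202 it was cel1b at 0.972. For 77517 it was the chitinase gene chi18-15 at 0.998, for 104072 rsr1 at 0.990 and for 62380 rgs1 at 0.939. The chi18-15 gene was near 0 on glucose, at normalised read counts of 0, 1.21 and 2.56 in libraries 1, 2 and 3. Its log2 fold change was 6.21, or 3.82 with a pseudocount of 10, against 1.64 for 77517. The high r thus does not mean a rise of like size. The normalised read counts of rgs1 were 1101, 1521 and 1832 in cellulose libraries 1, 2 and 3, and 558, 634 and 1629 in glucose libraries 1, 2 and 3, so that it too was high in glucose library 3. Without that library rgs1 passed (log2 fold change 1.29), as 62380 did. Since rgs1 was picked for its correlation with 62380 over these same libraries, both likenesses follow from the choice and are not separate support.

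The genes beside the transporters were taken from the order of genes in assembly v2.0. Of the 14 adjoining genes, 11 had enough reads to be tested, and 7 rose, 1 fell and 3 did not pass, against 18.2% higher and 11.2% lower over all genes. Of the 7, protein 69944 had enough reads only through its cellulose libraries, with means of 629 on cellulose and 6.17 on glucose. It could thus only be called higher. Protein 77517 adjoins cel1b, whose normalised read counts were 6081, 5682 and 1912 in cellulose libraries 1, 2 and 3, and 1527, 1405 and 1190 in glucose libraries 1, 2 and 3. All cellulose libraries of cel1b were above the glucose ones (log2 fold change 1.56, limma adjusted p = 0.0294). On its other side, protein 60945 had the opposite order, at 491, 457 and 122 in cellulose libraries 1, 2 and 3, and 1050, 879 and 719 in glucose libraries 1, 2 and 3. Its log2 fold change of -1.53 did not pass (limma adjusted p = 0.0588), and it passed without cellulose library 3, under quantile normalisation, with library weights, with the replicate number as a block and in DESeq2.

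Both genes beside crt1 rose, 106164 by 2.17 on the log2 scale (limma adjusted p = 0.00923) and 26163 by 2.53 (limma adjusted p = 0.0157). The call of 26163 was lost without any one of cellulose libraries 1 and 2 and glucose libraries 2 and 3. Both genes beside 79202 rose as well, 63981 by 2.78 and 108663 by 3.67 on the log2 scale. Beside 69957, protein 69944 was at 1339, 362 and 187 in cellulose libraries 1, 2 and 3, and at 11.0, 3.63 and 3.84 in glucose libraries 1, 2 and 3, or 6.12 on the log2 scale (limma adjusted p = 0.00124), with 5.34 without cellulose library 1 and 6.75 without cellulose library 3. It followed the order of 69957 within cellulose, with library 1 highest and library 3 lowest. Beside hxt1, protein 80340 rose by 3.00 on the log2 scale, while 4996 was at 0.54 and did not pass. Beside 62380, protein 48707 fell by 0.61 on the log2 scale (limma adjusted p = 0.0276, lost when any library but cellulose library 3 was left out and with the replicate block), and 108018 was at 0.41 and did not pass. Neither gene beside 104072 had enough reads.

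**Figure D4:**
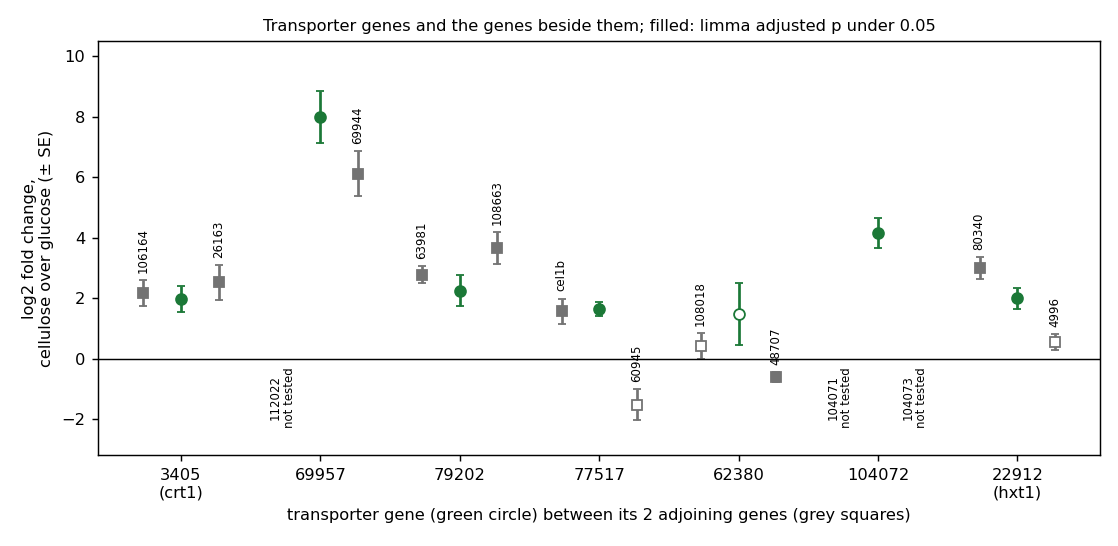
Log2 fold changes with SE, cellulose over glucose, of each transporter gene (green circles) and the gene on each side of it (grey squares, labelled by protein identifier or symbol); filled symbols passed at a limma adjusted p under 0.05. Both neighbours of crt1 and of 79202 rose, while 60945 beside 77517 lies at -1.53, on the other side of 0 from 77517 and cel1b.

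Other genes of cellulose use were read from 3 lists of symbols. Of 14 cellulose degradation genes tested, 10 rose, 1 fell and 3 did not pass, with a median log2 fold change of 6.54 against -0.02 over all genes, of which 18.2% were called higher and 11.2% lower. The 4 with the smallest p were cip1 at a log2 fold change of 8.67, the monooxygenase gene cel61a at 7.61, the cellobiohydrolase gene cel7a at 8.09 and the endoglucanase gene cel5a at 8.46. Single libraries moved these values: without cellulose library 1 they were 7.95 for cip1, 7.33 for cel7a and 7.56 for cel5a, without glucose library 1 they were 8.96 for cel7a and 9.35 for cel5a, and without cellulose library 3 cel5a was at 9.16. The fold change of 69957 was of this size, and those of crt1, 79202, 77517 and hxt1 were smaller, as plain values without a test between genes. Of 8 regulator genes, 4 rose and 0 fell by limma (0 also in edgeR, in DESeq2 and at an unadjusted limma p under 0.05), with a median of 1.16. Over all genes 18.2% were called higher and 11.2% lower, so that 0 lower among 8 genes is near the share over all genes. Among those that rose were the remaining cre1 signal at 2.11, the kinase gene snf1 at 1.37 and the photoreceptor gene env1 at 1.90. The count of 4 and the median thus include cre1. As cre1 was deleted, its rise is not a result about the regulators.

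The third list held enzymes that use sugars after uptake. Of 10 tested, 2 rose, 2 fell and 6 did not pass, with a median of 0.28. Both counts are near the shares over all genes, 18.2% higher and 11.2% lower, and are not a result about these genes. The arabinitol dehydrogenase gene lad1 rose by 1.76 on the log2 scale (SE 0.26), and the xylose reductase gene xyl1 rose too (limma adjusted p = 0.0396). The genes gal10 and gal1, of galactose use, fell by 0.99 and 0.69 on the log2 scale. The call of xyl1 was lost in 7 of 17 alternatives, that of gal1 in 6 and that of gal10 in 1. The hexokinase gene hxk1, whose product phosphorylates hexoses inside the cell, was at -0.18 and did not pass.

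The next comparison set the mutant against the parental strain. Its values are those of the authors' deposited table, without an error, and whether both strains were grown and sequenced together is not given, so strain and batch cannot be told apart. On cellulose the authors' deposited table called 3 of the 7 transporters higher in the mutant, crt1, 79202 and 77517, and 1 lower, hxt1, where 6.76% of genes were called higher and 2.51% lower at a deposited adjusted p under 0.05. On glucose the authors' deposited table called 3 higher, crt1, 79202 and hxt1, against 4.48% of genes called higher and 3.45% lower, and the other 4 had no call. The median log2 fold change of the 7 genes in the authors' deposited table was 0.60 on cellulose and 1.99 on glucose, beside -0.00043 and -0.04 over all genes.

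The largest strain difference of the 7 genes was that of crt1 on glucose. On cellulose, the authors' deposited table gave crt1 a log2 fold change of 0.65 in the mutant over the parent (deposited adjusted p = 0.0385), which is 1.57-fold. On glucose the authors' deposited table gave it 6.03 (deposited adjusted p = 5.02e-51), or 65.2-fold. The gap between the carbon sources was -5.38 on the log2 scale, cellulose minus glucose, in the authors' deposited table, with a median of 0.02 over the 8678 genes that had a fold change on both. No test of this gap could be made from the deposited fold changes.

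Protein 79202 was the only one of the 7 with a log2 fold change of at least 1 and a call on both carbon sources in the authors' deposited table. It was higher in the mutant by 2.13 with cellulose (deposited adjusted p = 7.92e-19) and by 5.16 with glucose (deposited adjusted p = 2.5e-08). Its neighbour 108663 was called higher on cellulose at 1.66 (deposited adjusted p = 5.25e-10) and was at 4.01 without a call on glucose (deposited adjusted p = 1) in the authors' deposited table. On the other side, 63981 was at -0.08 on cellulose and -0.02 on glucose, without a call, in the authors' deposited table, although it rose on cellulose over glucose within the mutant.

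The hxt1 gene changed in opposite directions. The authors' deposited table gave a log2 fold change of -0.87 with cellulose (deposited adjusted p = 0.00757) and 4.06 with glucose (deposited adjusted p = 0.000326), so that the mutant stood at 54.9% of the parent with cellulose and at 1664% of it with glucose. The gap between the carbon sources was -4.92 on the log2 scale in the authors' deposited table and was not tested.

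Protein 77517 was called on cellulose only, and its value on glucose lay below 0 without a call. The authors' deposited table gave it 0.98 with cellulose (deposited adjusted p = 0.0329) and -0.53 with glucose, without a call (deposited adjusted p = 0.608). Both genes beside it were called higher in the mutant on glucose in the authors' deposited table, cel1b at 3.28 (deposited adjusted p = 9.36e-18) and 60945 at 5.02 (deposited adjusted p = 9.93e-31). On cellulose the authors' deposited table gave 60945 at 0.97 with a call and cel1b at 0.35 without one.

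The remaining 3 transporters had no call on either carbon source in the authors' deposited table. Protein 69957 was at -0.08 on cellulose and 1.99 on glucose, and 104072 at 0.23 and 1.94 in the same order, by the authors' deposited table. The deposited adjusted p was 1 for both on glucose, where they had 4 and 38 reads in the 3 mutant libraries together, and a p of exactly 1 was given to 39.1% of genes on glucose in the authors' deposited table. The missing calls do not show that the strains had the same level, and the part of read depth in them was not tested. Protein 62380 was at 0.60 on cellulose and 0.63 on glucose in the authors' deposited table (deposited adjusted p = 0.522 and 0.796).

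Beside crt1, protein 106164 was called higher in the mutant on cellulose at 1.19 (deposited adjusted p = 2.43e-05) and was at 6.58 on glucose without a call in the authors' deposited table. Of the 14 cellulose degradation genes, the authors' deposited table called 1 higher and 2 lower on cellulose, where 6.76% of all genes were called higher and 2.51% lower, and 4 higher and 0 lower on glucose, where 4.48% were called higher and 3.45% lower. The 1 higher on cellulose and the 0 lower on glucose are near these shares. The 4 higher on glucose were all β-glucosidase genes, cel1b and cel3b among them. The genes cel7a, cel5a, cel61a and cip1 had no call there. Of the 10 genes of sugar use after uptake, the authors' deposited table called 3 higher on cellulose, beside 6.76% of all genes, and 0 on glucose, which is near the share of 4.48% over all genes. Of 8 regulator genes, it called 2 higher and 1 lower on cellulose, and 1 higher and 2 lower with glucose. The higher one with glucose in the authors' deposited table was the activator gene xyr1 at 5.19. The lower one on cellulose was cre1, the deleted gene. With glucose the lower ones were cre1 again and the kinase gene snf1 at -1.26. On cellulose snf1 was among those called higher, at 0.89. As cre1 was deleted, its calls are not a result about the regulators.

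**Figure D5:**
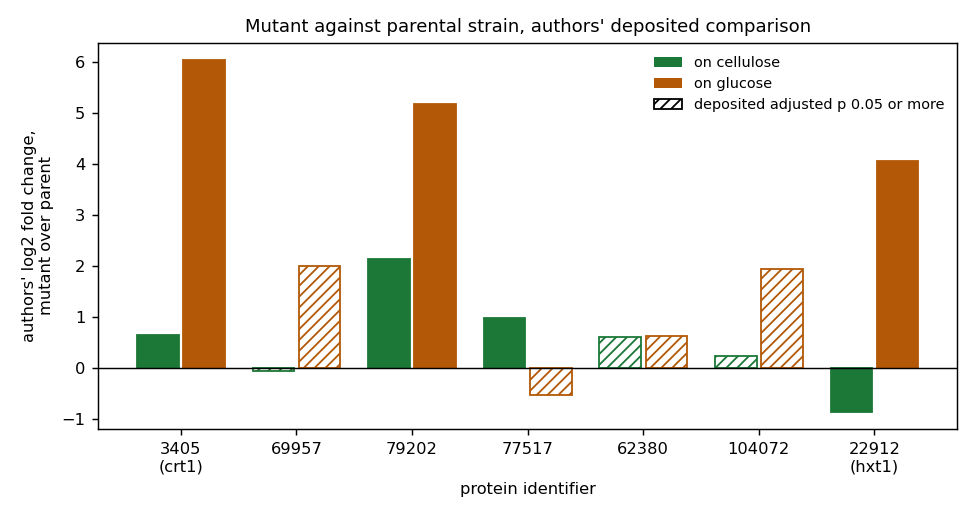
Log2 fold changes of the mutant over the parental strain for the 7 transporter genes, on cellulose (green) and on glucose (brown), from the authors' deposited table; hatched bars had a deposited adjusted p of 0.05 or more. On cellulose hxt1 lies below 0, and on glucose crt1, 79202 and hxt1 stand at 6.03, 5.16 and 4.06.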

How the data were processed

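The authors deposited a normalised signal per gene and library for the 6 mutant libraries. Per the submitters' processing notes, Bowtie 0.12.8, SAMtools 0.1.18 and DESeq 1.10.1 were used, with no roles. The genome build, annotation and read counter: not given in the sources used here. Each value was a whole multiple of the value of 1 read in its library, so whole reads were recovered for 100% of values within 0.01 read. A second deposited table holds the authors' log2 fold changes of mutant over parent. The authors' adjusted p-values stand beside them, per the file headers, with no method named. Its counts leave out fold changes of 0 and placeholders of 100 in size. Per-library values of the parent, in 6 columns, match no labelled sample and were not used.

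Cellulose against glucose was tested with limma 3.58.1 (R 4.3.3) with an intensity trend on log2(normalised count + 1), for the 8176 genes with a mean of at least 10, and 953 were left out. The adjusted p threshold was 0.05, two-sided. This scale understates changes of genes with few reads. EdgeR 4.0.16 and DESeq2 1.42.0 were run on the recovered reads, where edgeR called 1520 genes higher and 805 lower. The scripts were tested on simulated data. P-values measure the spread between the libraries as labelled.

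Identifiers were matched to locus tags of assembly v2.0, for 9072 of 9129 genes, and 226 had a symbol; builds may differ, so it served for names and gene order only. Members and lists were chosen with earlier results of these data known. Named were all members, the genes of highest Pearson correlation (3 for crt1 and hxt1, 1 for each other), both adjoining genes of each, the 4 list genes with the smallest p and cre1. A gene that these rules name is not reported here. The genes xyr1, hxk1 and cel3b were named after their values were seen. Ratios to crt1 were added after the data were seen, with exact permutation tests (SciPy 1.17.1). Protein and promoter sequences, and a planned list of sequence relatives, were not analysed here.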

Additional observations from a re-analysis of the deposited data

How the results depend on the processing

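The count of 6 transporter genes higher on cellulose held in every setting that kept all libraries, and leaving out 1 library gave 5 to 6, with 0 lower throughout. Without glucose library 3 the 6 were not the same genes, since 79202 lost its call and 62380 gained one. Over 37 named genes and their alternatives, 582 of 628 values kept their direction and side of the threshold, 39 lost the call, 7 gained one and 0 changed sign. Quantile normalisation gave 1278 genes higher and 1519 lower, against 1490 and 913. Leaving out 1 library gave 996 to 1720 genes higher and 361 to 1365 lower, the highest counts without cellulose library 3 and the lowest without glucose library 2. The cellulose degradation genes called lower, 1 (cel3b) as reported, were 0 in edgeR, 0 with the replicate block, 2 with library weights and 0 to 2 without 1 library; those higher were 9 to 12 without 1 library. Regulators higher, with the deleted cre1 counted, were 4 to 5 and lower 0 to 0 without 1 library. For sugar use after uptake, 1 gene was higher without an intensity trend and 1 under quantile normalisation, 1 was lower without the trend and 1 with the replicate block, and leaving out 1 library gave 1 to 2 higher and 0 to 3 lower.

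The replicate number as a block gave 1264 genes higher and 647 lower, and 6 transporters higher. The correlation of deviations of same-numbered libraries was 0.12, -0.14 and -0.03 for numbers 1, 2 and 3, and the best partner was not always the same number, so the numbers were not taken to pair libraries.

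Of the transporters the authors called higher on cellulose, 1 remained of 3 at a deposited adjusted p under 0.01 and 1 with a log2 fold change of at least 1, both times 79202; for the 1 called lower, hxt1, the second rule gave 0. The 3 calls on glucose passed both. For 69957 and 104072, 4 and 38 glucose reads limit precision. With 1 library left out of a group of 3, the model's spread rests on 5 libraries.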
